A study of Danio rerio with 17 samples.

Results

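Cells with strong expression of a sox10-driven red fluorescent protein (RFP) were sorted from dissociated ocular tissue of zebrafish in a model of malignant peripheral nerve sheath tumour, and their polyadenylated RNA was sequenced. Cancer_High is the RFP-bright fraction of tumours and PreC_High the RFP-bright fraction of pre-cancerous tissue. The 2 groups hold 7 of the 17 libraries of the series, 4 of Cancer_High and 3 of PreC_High, and were picked by the column names of the count table. Fish of both groups carry tg(sox10:RFP), in which the sox10 promoter drives the fluorescent protein, and 2 copies of the brca2 hg5 allele, so genotype does not separate them. Ages were 7.5, 8.1, 8.1 and 10.4 months in Cancer_High and 4.5, 4.5 and 4.7 months in PreC_High. The RFP-dim fractions of the same tissues, Cancer_Low with 4 libraries and PreC_Low with 3, are set beside them at the end. Control_Low (3 libraries of fish with the reporter and without the brca2 alleles), entered the model fit and is not described. The labels do not say whether a library is 1 fish or a pool. The p-values measure the spread between libraries within groups. For each gene that spread was estimated over all 17 libraries of the fit, the dim ones included, not over the 7 bright libraries alone.

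The transcription factor Sox10 is made by neural crest cells and by several of their descendants, among them Schwann cells and pigment cells, and also by oligodendrocytes, the myelin-forming glia of the brain and the optic nerve. A gate on a sox10 reporter can therefore hold any of these lineages. Myelin is a stack of glial membrane held together by a small set of abundant proteins, and the genes for these proteins are read as the mark of a mature myelinating cell. Malignant peripheral nerve sheath tumours are cancers of the Schwann cell lineage, and the loss of BRCA2 impairs repair of DNA breaks by homologous recombination.

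Library totals were 73123965 to 82147723 counts in Cancer_High and 61845021 to 80096474 counts in PreC_High. Pearson correlations of log2 CPM (here counts scaled to the library total alone) were 0.8916 to 0.9217 among Cancer_High libraries, 0.9525 to 0.9551 among PreC_High libraries and 0.8256 to 0.8585 between the groups. CPM values of genes below also use a scaling factor per library (TMM). The first principal component held 48.05% of the variance and separated the groups, and the second held 15.46% and spread the tumours, with Cancer_High replicate 3 at one end and replicate 2 at the other. Stage, age and library index (13 to 17 in Cancer_High; 1, 2 and 7 in PreC_High) change together and cannot be told apart. A property of the counts moved with them. Of counts between 20 and 100, 51.2 to 52.4% were even in Cancer_High and 65.9 to 76.7% in PreC_High, and 4019 to 4295 IDs had 3 to 20 counts in Cancer_High libraries, against 994 to 2344 in PreC_High libraries. The part of this in the results was not tested beyond the alternatives of the closing section.

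The gene whose promoter drives the reporter followed the gate. SOX10 read 748, 1389, 913 and 1053 CPM in Cancer_High, against 1329, 1597 and 1545 CPM in PreC_High. In the dim fractions it averaged 137 ± 188 CPM in Cancer_Low and 18.1 ± 7.36 CPM in PreC_Low (SD, n = 4 and 3). Both bright fractions therefore held abundant sox10 transcript, and the difference between them (log2 fold change -0.54 ± 0.69, adjusted p = 0.68; SE; edgeR's quasi-likelihood test with Benjamini-Hochberg adjustment, as for every adjusted p here) did not pass the threshold of 0.05. The ranges overlap: Cancer_High replicate 2 lay above PreC_High replicate 1. brca2, which carries the mutant allele in both groups, read 12.7, 9.89, 9.14 and 9.30 CPM in Cancer_High, against 13.1, 9.90 and 17.9 CPM in PreC_High, a log2 fold change of -0.41 ± 0.37, adjusted p = 0.535.

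Between the bright fractions, 2364 of 23299 genes tested (10.1%) passed the threshold, 1144 higher in Cancer_High (4.91%) and 1220 lower (5.24%). Counts of list members called below are to be read against these shares. Fitted without PreC_High replicate 1, 611 genes were higher, and without PreC_High replicate 3, 683. The libraries of the groups did not overlap at 2160 of the 2364 called genes (91.4%), against 23.6% of all genes tested. Lack of overlap is thus the usual state of a called gene. Of the 1144 higher genes, 170 had no count in any PreC_High library, with a median level of 0.232 CPM in Cancer_High, and 8 of the 1220 lower genes had no count in any Cancer_High library. Of all 23299 genes tested, 1009 had no count in any PreC_High library and 137 had none in any Cancer_High library. Over all genes tested, the log2 fold change had a median of 0.211, and 0.1399 with another scaling (RLE), so list medians below are to be read against a shift of this size. In bulk RNA, fewer cells of a kind and less RNA per cell cannot be told apart, at this and every later result.

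**Figure D1:**
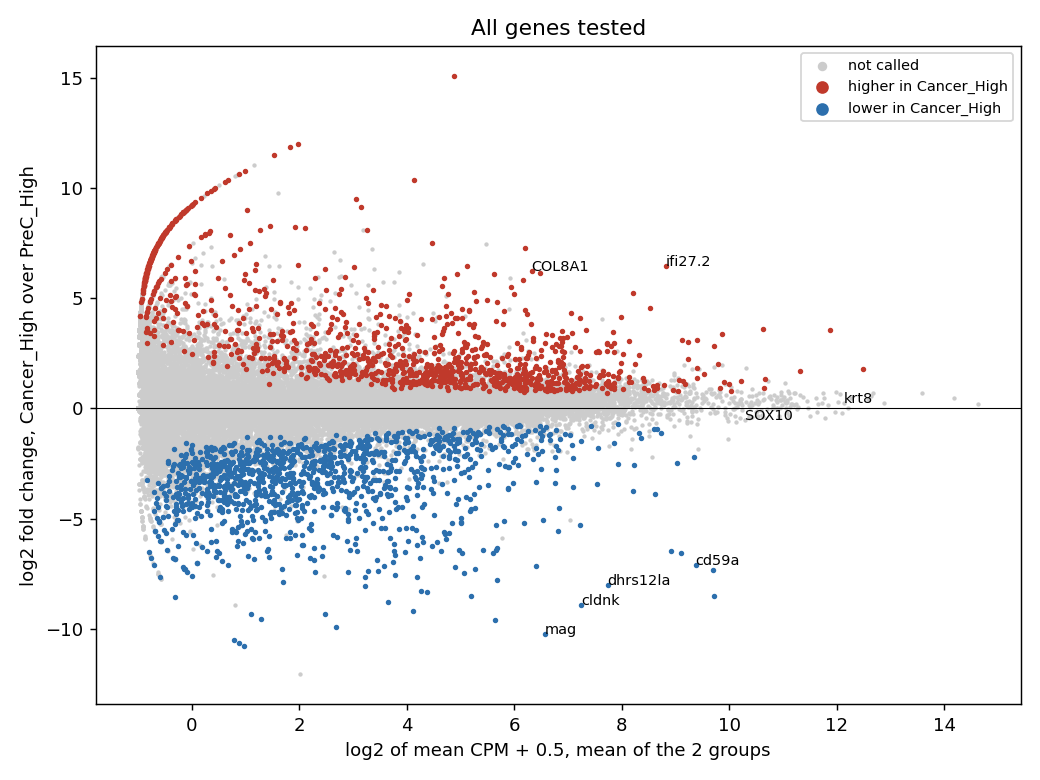
Each point is 1 of the genes tested, at the log2 of its mean CPM over the 2 groups (x axis, 0.5 added) and its log2 fold change of Cancer_High over PreC_High (y axis), with the 1144 genes called higher in red and the 1220 called lower in blue. The labelled genes at the lower right (mag, cldnk, dhrs12la, cd59a) fell, SOX10 and krt8 lie near 0, and the arc at the upper left is made of genes with no count in PreC_High, whose plotted fold changes depend on the fit's prior count.

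Myelin genes of the central nervous system were abundant in PreC_High and far lower in Cancer_High. mag, the myelin-associated glycoprotein of the membrane next to the axon, had 0.153, 0.222, 0.0441 and 0.196 CPM in Cancer_High, against 174, 171 and 223 CPM in PreC_High. Its log2 fold change of -10.25 ± 0.98, adjusted p = 5.00e-06 was the lowest of the genes described here. cldnk, a claudin of zebrafish myelin, had 0.111, 1.18, 0.397 and 0.784 CPM in Cancer_High, against 349, 271 and 290.3 CPM in PreC_High (log2 fold change -8.94 ± 0.96, adjusted p = 1.24e-05).

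Myelin basic protein, which compacts the membrane stack, was lower in the same libraries. mbpa had 27.6, 9.05, 3.76 and 6.40 CPM in Cancer_High, against 1134, 1008 and 1137 CPM in PreC_High (log2 fold change -6.54 ± 0.89, adjusted p = 1.24e-04). The axon-glia junction gene NFASC had 1.40, 0.583, 9.39 and 1.15 CPM in Cancer_High, against 112, 109 and 102 CPM in PreC_High, where Cancer_High replicate 3 was highest of the tumours and still below every PreC_High library.

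Of 16 genes tested in a list of myelin structure genes, 8 were lower and 0 higher, with a median log2 fold change of -2.94. Summed over the list, myelin transcripts came to 411 to 920 CPM in Cancer_High and 5786 to 6769.9 CPM in PreC_High. Another called member was TSPAN2, a tetraspanin of oligodendrocytes, with 25.9, 36.1, 57.1 and 14.2 CPM in Cancer_High, against 159, 131 and 130.2 CPM in PreC_High. Some members of the list were still present in the tumours. mbpb, a second myelin basic protein gene, had 199, 223, 94.6 and 31.8 CPM in Cancer_High, against 119, 81.5 and 99.4 CPM in PreC_High (adjusted p = 0.579). cnp, an enzyme of non-compact myelin, had 277, 394, 194 and 280.3 CPM in Cancer_High, against 242, 259.7 and 227 CPM in PreC_High (adjusted p = 0.624). pmp22a, a peripheral myelin protein, had 91.9, 34.8, 213 and 20.9 CPM in Cancer_High, against 16.1, 19.1 and 26.7 CPM in PreC_High, with 3 of the 4 tumours above every PreC_High library (log2 fold change 2.13 ± 0.71, adjusted p = 0.0652).

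The regulators of oligodendrocytes fell with their targets. MYRF, the transcription factor that switches on central myelin genes, had 0.181, 0.458, 0.206 and 0.648 CPM in Cancer_High, against 54.3, 66.8 and 76.4 CPM in PreC_High (log2 fold change -7.46 ± 0.92, adjusted p = 5.23e-05). OLIG2, needed to specify the lineage, had 0.139, 0.708, 0.0294 and 0.437 CPM in Cancer_High, against 26.1, 40.7 and 42.8 CPM in PreC_High (log2 fold change -6.79 ± 1.02, adjusted p = 3.15e-04). NKX2-2 had 0.0139, 0, 0 and 0 CPM in Cancer_High, against 6.63, 1.87 and 3.14 CPM in PreC_High, a total of 1 count over the 4 tumours (adjusted p = 0.00425). The groups do not overlap at any of the 3 factors, where 91.4% of all called genes had no overlap. UGT8, which makes the galactolipids of myelin, had 6.996, 66.3, 20.9 and 16.1 CPM in Cancer_High, against 156, 115 and 133 CPM in PreC_High (log2 fold change -2.29 ± 0.58, adjusted p = 0.0178), a call lost without PreC_High replicate 1 (adjusted p = 0.0558). In the list of oligodendrocyte lineage and myelin lipid genes, 5 of 19 were lower and 0 higher, with a median of -0.46. By contrast SOX8 (ENSDARG00000105301), a close relative of Sox10, had 534, 842, 327 and 598 CPM in Cancer_High, against 842, 779 and 748 CPM in PreC_High (adjusted p = 0.781).

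**Figure D2:**
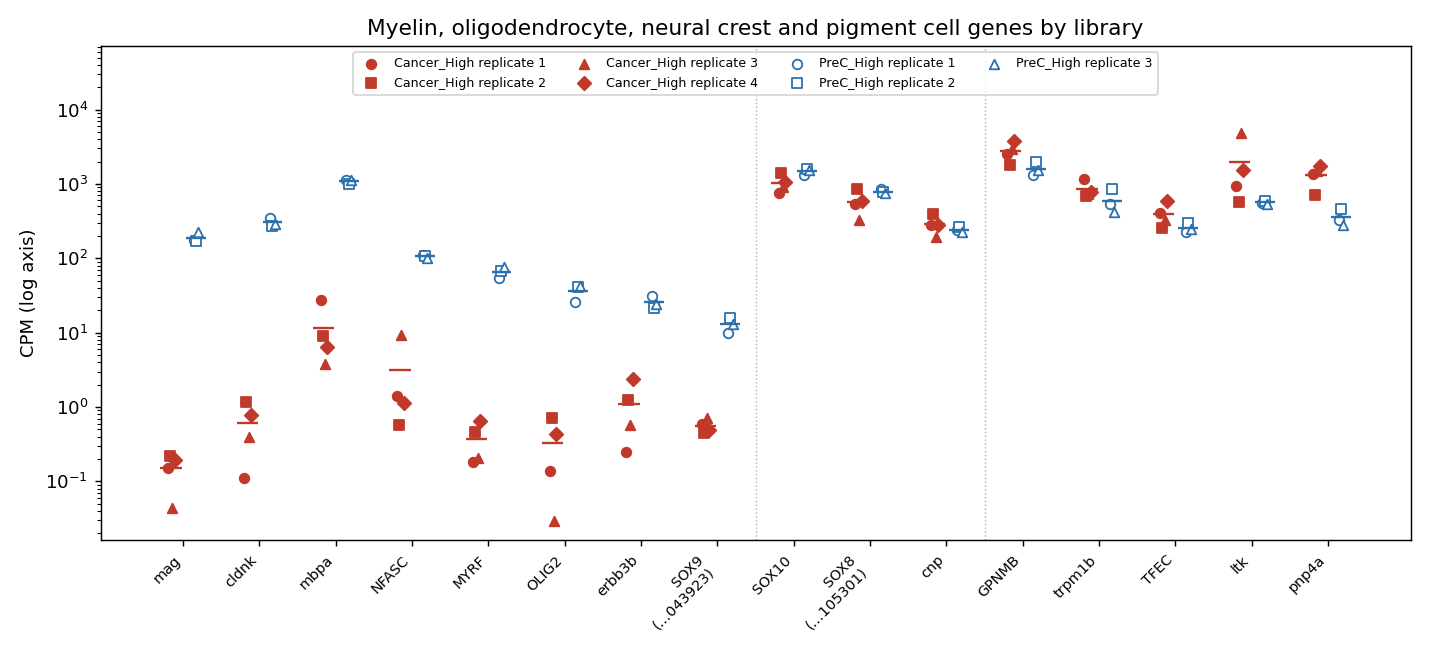
CPM on a log axis for 16 genes, with filled red symbols for the 4 Cancer_High libraries, open blue symbols for the 3 PreC_High libraries, 1 symbol shape per replicate number and a bar at each group mean. Left of the first dotted line the red points lie below the blue ones at every gene; in the middle SOX10, SOX8 (ENSDARG00000105301) and cnp overlap between groups, and at the right the pigment cell genes do not fall in Cancer_High.

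Some neural crest and Schwann cell genes were lower in the tumours. erbb3b, the neuregulin receptor that Schwann cells and their precursors depend on, had 0.250, 1.23, 0.573 and 2.37 CPM in Cancer_High, against 31.5, 21.3 and 24.4 CPM in PreC_High (log2 fold change -4.54 ± 0.62, adjusted p = 1.24e-04). SOX9 (ENSDARG00000043923), a crest and glial transcription factor, had 0.598, 0.444, 0.705 and 0.497 CPM in Cancer_High, against 9.80, 15.9 and 13.03 CPM in PreC_High (log2 fold change -4.52 ± 0.55, adjusted p = 4.09e-05). The other copy, SOX9 (ENSDARG00000003293), had 0.848, 2.86, 0.808 and 0.799 CPM in Cancer_High, against 11.5, 11.11 and 12.2 CPM in PreC_High (log2 fold change -3.12 ± 0.65, adjusted p = 0.00477). ID3, an inhibitor of differentiation factors, had 5.87, 12.5, 11.7 and 34.5 CPM in Cancer_High, against 126, 92.2 and 85.4 CPM in PreC_High (log2 fold change -2.65 ± 0.53, adjusted p = 0.00335). The libraries of the groups do not overlap at these 4 genes, where 91.4% of all called genes had no overlap. In the list of 35 crest and Schwann lineage genes, 6 were lower and 1 higher, with a median of -0.52. Of all genes tested, 5.24% were lower and 4.91% higher. NGFR (ENSDARG00000088708), a neurotrophin receptor gene, was lower (log2 fold change -2.41 ± 0.57, adjusted p = 0.0113), a call lost without PreC_High replicate 1 (adjusted p = 0.0642). The gene listed as NGFR (ENSDARG00000089223) was higher (2.47 ± 0.71, adjusted p = 0.0335), a call lost without PreC_High replicate 2 or 3 or Cancer_High replicate 3 (adjusted p = 0.107, 0.125 and 0.102).

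Other lineage markers did not pass the test. S100B, a calcium-binding protein of glia, had 23.9, 487, 44.1 and 183 CPM in Cancer_High, against 376, 224 and 259 CPM in PreC_High (adjusted p = 0.729). crestin, a zebrafish neural crest marker, had 30.4, 7.48, 96.0 and 27.4 CPM in Cancer_High, against 55.7, 74.8 and 56.6 CPM in PreC_High (adjusted p = 0.74). The tumours span more than a 10-fold range at both, above and below the pre-cancerous values. twist1a averaged 1.40 ± 0.109 CPM in Cancer_High and 1.31 ± 0.305 CPM in PreC_High (SD, n = 4 and 3), with an adjusted p of 0.93, and PDGFRA had 1.03, 0.832, 0.147 and 1.67 CPM in Cancer_High, against 1.90, 1.22 and 3.28 CPM in PreC_High (adjusted p = 0.208).

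Several pigment cell genes were abundant in both bright fractions. The 16 melanin genes tested summed to 2569 to 4672 CPM in Cancer_High and 1910 to 2854 CPM in PreC_High. Most of this came from 2 members, GPNMB and trpm1b. GPNMB, a glycoprotein of melanosomes and lysosomes, had 2508, 1821, 2964 and 3778 CPM in Cancer_High, against 1309, 1955 and 1517 CPM in PreC_High (log2 fold change 0.80 ± 0.78, adjusted p = 0.573), against 510.0 ± 671 CPM in Cancer_Low and 16.8 ± 5.87 CPM in PreC_Low in the dim fractions (SD, n = 4 and 3). trpm1b, a cation channel of pigment cells, had 1168, 691, 731 and 780.1 CPM in Cancer_High, against 529.9, 850.5 and 415 CPM in PreC_High (adjusted p = 0.739). ltk, the receptor kinase that specifies iridophores, the silver pigment cells of fish, had 931, 578, 4908 and 1551 CPM in Cancer_High, against 554, 595 and 542 CPM in PreC_High, with Cancer_High replicate 3 far above the others (log2 fold change 1.82 ± 0.95, adjusted p = 0.245). pnp4a, a purine enzyme of iridophores, had 1349, 709.8, 1478 and 1766 CPM in Cancer_High, against 330.4, 462 and 282 CPM in PreC_High. All 4 tumours lay above all 3 PreC_High libraries at pnp4a, yet the fit did not call it (log2 fold change 1.89 ± 0.92, adjusted p = 0.215). The fit's spread comes from all 17 libraries, so the missing call does not measure the bright libraries alone.

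Transcription factors of pigment cells were likewise present in both fractions. TFEC had 407, 253, 332 and 585 CPM in Cancer_High, against 223, 302 and 247 CPM in PreC_High (adjusted p = 0.35), ALX4 (ENSDARG00000074442) had 353, 157, 243 and 278 CPM in Cancer_High, against 196, 164 and 179 CPM in PreC_High (adjusted p = 0.69). ALX4 (ENSDARG00000088332) had 881, 754, 943 and 719 CPM in Cancer_High, against 742, 1029 and 748 CPM in PreC_High (adjusted p = 0.993). The groups overlap at these 3 genes. In the list of iridophore and xanthophore genes 1 of 20 was called, the macrophage and xanthophore receptor csf1ra (higher), with a median of 0.61. That share is near the 4.91% of all genes tested. With only the bright groups fitted, 2 of 19 were higher, beside 544 of all 20616 genes tested. The summed level of the list was 3563 to 9161 CPM in Cancer_High and 2652 to 3440.5 CPM in PreC_High. In the melanin list 1 of 16 was called, MITF (ENSDARG00000037833), with 2.85, 3.22, 2.97 and 8.57 CPM in Cancer_High, against 1.05, 1.90 and 0.695 CPM in PreC_High (log2 fold change 1.86 ± 0.56, adjusted p = 0.0425); the call was lost in 7 of 16 alternative fits. The other copy, MITF (ENSDARG00000003732), had 8.08, 13.0004, 25.3 and 24.8 CPM in Cancer_High, against 23.7, 12.6 and 21.6 CPM in PreC_High (adjusted p = 0.905). The melanosome fibre gene pmela had 8.90, 3.25, 9.36 and 24.3 CPM in Cancer_High, against 13.96, 9.93 and 23.3 CPM in PreC_High (adjusted p = 0.696).

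Interferon response genes were higher in the tumours. ifi44a1, an interferon-induced gene, had 91.7, 36.8, 93.4 and 16.95 CPM in Cancer_High, against 0.883, 0.650 and 1.06 CPM in PreC_High (log2 fold change 6.11 ± 0.70, adjusted p = 2.51e-05). mxa, an antiviral GTPase, had 213, 104, 226 and 25.1 CPM in Cancer_High, against 5.83, 8.30 and 7.42 CPM in PreC_High (log2 fold change 4.31 ± 0.72, adjusted p = 8.30e-04). IRF7, a transcription factor of the interferon loop, had 388, 284, 461 and 57.7 CPM in Cancer_High, against 17.4, 22.7 and 35.2 CPM in PreC_High (log2 fold change 3.57 ± 0.68, adjusted p = 0.00246). Every tumour library was above every pre-cancerous library at these genes, where 91.4% of all called genes had no overlap. Cancer_High replicate 4 was the lowest of the tumours at each.

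The signalling parts of the pathway rose too. stat2 had 487, 336, 451 and 184 CPM in Cancer_High, against 74.6, 59.0 and 47.5 CPM in PreC_High (log2 fold change 2.59 ± 0.41, adjusted p = 4.77e-04). The feedback inhibitor SOCS1 had 540.4, 335, 467 and 419 CPM in Cancer_High, against 103, 74.6 and 57.4 CPM in PreC_High (log2 fold change 2.49 ± 0.33, adjusted p = 1.03e-04). The product of stat2 carries the interferon signal to the nucleus. In the list of 39 interferon response genes, 25 were higher and 0 lower, with a median of 2.13 against 0.211 for all genes tested. Their groups did not overlap at any of the 25, where 91.4% of all called genes had no overlap. Cancer_High replicate 4 was the lowest tumour at 20 of the 25. isg15, a ubiquitin-like interferon product, had 899.9, 1283, 1254 and 193 CPM in Cancer_High, against 159, 311 and 229 CPM in PreC_High and missed the threshold (adjusted p = 0.0569). Outside the list, ifi27.2 had 904, 316, 2324 and 37.3 CPM in Cancer_High, against 4.00, 12.4 and 13.7 CPM in PreC_High (log2 fold change 6.48 ± 1.19, adjusted p = 0.00185) and ifi44c2 had 138, 132, 138 and 14.96 CPM in Cancer_High, against 4.40, 4.85 and 5.70 CPM in PreC_High (log2 fold change 4.41 ± 0.71, adjusted p = 6.15e-04).

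Genes of antigen presentation on MHC class I, several of which respond to interferon, were higher as well. b2m, the invariant light chain of class I molecules, had 2517, 2817, 1996 and 1971 CPM in Cancer_High, against 732, 1034 and 1037 CPM in PreC_High (log2 fold change 1.32 ± 0.24, adjusted p = 0.00164). mhc1uca, a class I heavy chain, had 246, 299, 242 and 184 CPM in Cancer_High, against 19.6, 46.6 and 40.5 CPM in PreC_High (log2 fold change 2.77 ± 0.32, adjusted p = 2.90e-05). mhc1uba had 48.7, 41.2, 40.8 and 41.9 CPM in Cancer_High, against 4.24, 6.08 and 9.40 CPM in PreC_High (log2 fold change 2.72 ± 0.37, adjusted p = 1.33e-04). Class I genes of zebrafish differ between haplotypes, and the files do not show how reads shared between them were counted. The inducible proteasome subunits PSMB8 and PSMB9, which trim proteins into peptides for display, averaged 397 ± 148 CPM in Cancer_High and 66.4 ± 7.95 CPM in PreC_High, and 144 ± 47.5 CPM in Cancer_High and 17.3 ± 4.76 CPM in PreC_High (SD, n = 4 and 3; adjusted p = 3.68e-04 and 3.94e-04). The peptide transporter tap2a had 227, 168, 129.7 and 77.9 CPM in Cancer_High, against 22.5, 30.5 and 33.9 CPM in PreC_High (log2 fold change 2.38 ± 0.41, adjusted p = 0.00119). The proteasome activator PSME2 had 338, 279, 183 and 229 CPM in Cancer_High, against 63.8, 60.0 and 79.6 CPM in PreC_High (log2 fold change 1.92 ± 0.28, adjusted p = 2.10e-04). In all, 18 of 26 listed genes were higher and 0 lower, with a median of 1.65. The groups did not overlap at any of the 18, where 91.4% of all called genes had no overlap.

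**Figure D3:**
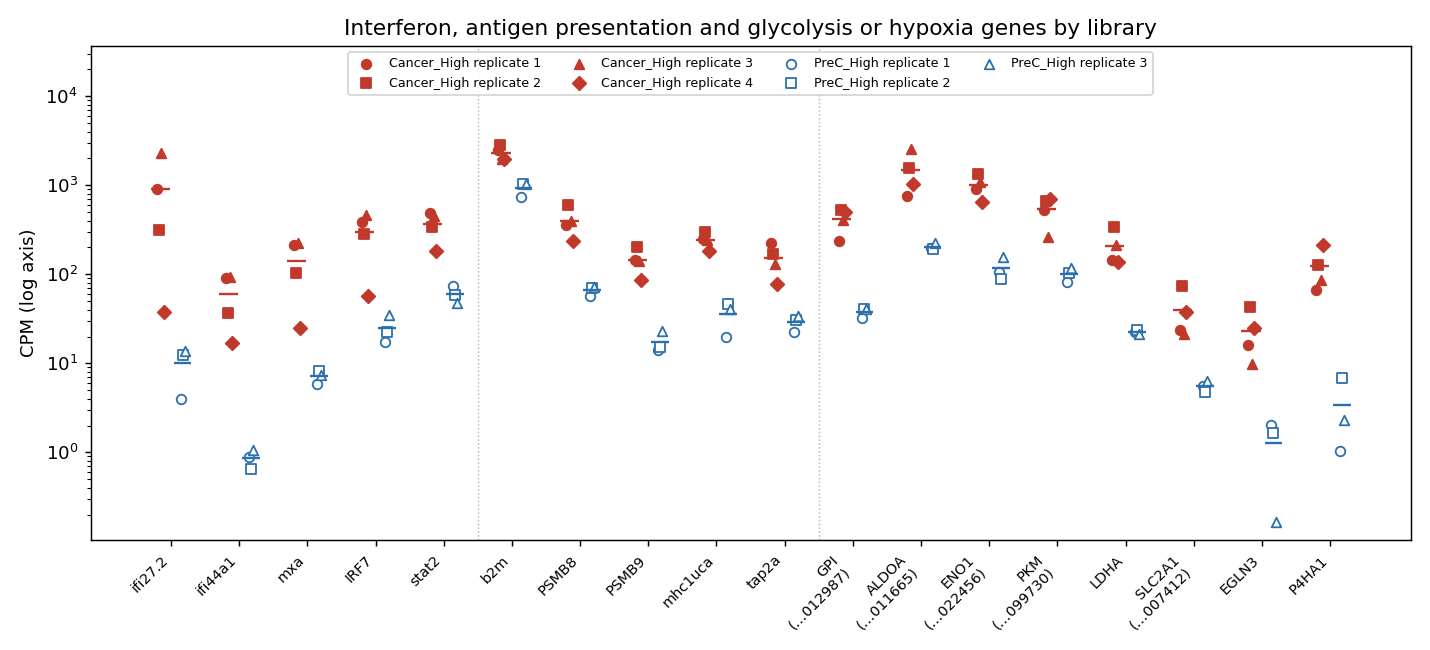
CPM on a log axis for interferon genes (left), antigen presentation genes (middle) and glycolysis or hypoxia genes (right), with symbols and bars as in the plot of lineage genes. Red Cancer_High points lie above all blue PreC_High points at every gene shown, and the red diamonds of Cancer_High replicate 4 are lowest at each interferon gene.

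Enzymes of glycolysis were higher in the tumours. GPI (ENSDARG00000012987), which converts glucose-6-phosphate to fructose-6-phosphate, had 238, 526, 412 and 499 CPM in Cancer_High, against 32.0, 40.4 and 40.5 CPM in PreC_High (log2 fold change 3.48 ± 0.36, adjusted p = 8.56e-06). ALDOA (ENSDARG00000011665), the aldolase, had 758, 1549, 2542 and 1024 CPM in Cancer_High, against 198, 193 and 223 CPM in PreC_High (log2 fold change 2.84 ± 0.40, adjusted p = 1.98e-04). ENO1 (ENSDARG00000022456), an enolase, had 912, 1330.3, 1088 and 653 CPM in Cancer_High, against 105, 88.3 and 157 CPM in PreC_High (log2 fold change 3.09 ± 0.53, adjusted p = 9.55e-04). At all 3 enzymes the lowest tumour lay above the highest pre-cancerous library, where 91.4% of all called genes had no overlap.

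Further enzyme genes of glycolysis and lactate formation were higher too. PKM (ENSDARG00000099730), pyruvate kinase, had 530.2, 671, 265 and 702 CPM in Cancer_High, against 81.2, 103 and 118 CPM in PreC_High (log2 fold change 2.43 ± 0.33, adjusted p = 1.24e-04), LDHA, lactate dehydrogenase, had 144, 335, 216 and 136 CPM in Cancer_High, against 22.2, 23.5 and 21.4 CPM in PreC_High (log2 fold change 3.22 ± 0.45, adjusted p = 1.71e-04). GAPDHS had 1181, 1771, 1618 and 1082 CPM in Cancer_High, against 376, 308 and 375 CPM in PreC_High (log2 fold change 2.002 ± 0.27, adjusted p = 1.22e-04). Glucose transporter genes of the same name moved in opposite directions. SLC2A1 (ENSDARG00000007412) had 23.6, 74.2, 21.4 and 37.7 CPM in Cancer_High, against 5.62, 4.79 and 6.41 CPM in PreC_High (log2 fold change 2.81 ± 0.40, adjusted p = 2.03e-04). SLC2A1 (ENSDARG00000001437) had 0.0139, 0, 0.0588 and 0.0151 CPM in Cancer_High, against 3.08, 6.11 and 7.31 CPM in PreC_High (adjusted p = 8.56e-06).

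Targets of the hypoxia-inducible factors were among the higher genes. VEGFA (ENSDARG00000103542), a growth factor for vessels, had 21.0, 55.8, 18.7 and 15.5 CPM in Cancer_High, against 3.53, 3.61 and 2.29 CPM in PreC_High (log2 fold change 3.14 ± 0.47, adjusted p = 3.37e-04), and its second copy VEGFA (ENSDARG00000034700) had 12.9, 27.1, 7.15 and 29.3 CPM in Cancer_High, against 3.07, 3.68 and 3.197 CPM in PreC_High (log2 fold change 2.53 ± 0.50, adjusted p = 0.00348). EGLN3, an oxygen-sensing prolyl hydroxylase, had 16.2, 42.6, 9.86 and 24.7 CPM in Cancer_High, against 2.01, 1.64 and 0.167 CPM in PreC_High (log2 fold change 4.19 ± 0.70, adjusted p = 7.84e-04). P4HA1, a prolyl hydroxylase of collagen, had 66.8, 127, 86.7 and 211 CPM in Cancer_High, against 1.04, 6.91 and 2.28 CPM in PreC_High (log2 fold change 5.17 ± 0.95, adjusted p = 0.00187). Over the glycolysis and hypoxia list, 20 of 53 genes were higher and 6 lower, with a median of 1.104; the 6 lower ones were SLC2A1 (ENSDARG00000001437), BNIP3, SLC16A1, NDRG1 (1 copy) and both EPAS1 copies, so the list did not move as a block. Cancer_High replicate 2 was the highest tumour at 13 of the 20.

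Nuclear genes of oxidative phosphorylation also leaned upward: 20 of 106 were higher and 1 lower, with a median of 0.56. cox6b1, a subunit of cytochrome oxidase, had 101, 172, 149 and 136 CPM in Cancer_High, against 3.14, 8.23 and 7.65 CPM in PreC_High (log2 fold change 4.46 ± 0.95, adjusted p = 0.00577). cox8b had 16.6, 9.05, 42.6 and 8.29 CPM in Cancer_High, against 0.707, 0.433 and 0.250 CPM in PreC_High (log2 fold change 5.36 ± 0.74, adjusted p = 1.40e-04). atp5f1e, of the ATP synthase, had 94.7, 135, 115 and 119 CPM in Cancer_High, against 49.4, 40.9 and 43.3 CPM in PreC_High (log2 fold change 1.38 ± 0.24, adjusted p = 0.0012). cox6c had 131, 233, 174 and 181 CPM in Cancer_High, against 69.7, 43.0 and 72.9 CPM in PreC_High (log2 fold change 1.54 ± 0.30, adjusted p = 0.00286). The exception was COX4I2, the hypoxia-linked form of subunit IV, with 47.6, 17.6, 9.34 and 40.9 CPM in Cancer_High, against 101, 94.0 and 90.8 CPM in PreC_High (log2 fold change -1.72 ± 0.45, adjusted p = 0.0221), a call lost without PreC_High replicate 1 or Cancer_High replicate 2 (adjusted p = 0.0623 and 0.0581). This count was less steady than those above: without PreC_High replicates 1, 2 or 3, or Cancer_High replicate 2, it was 9, 6, 7 and 10.

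**Figure D4:**
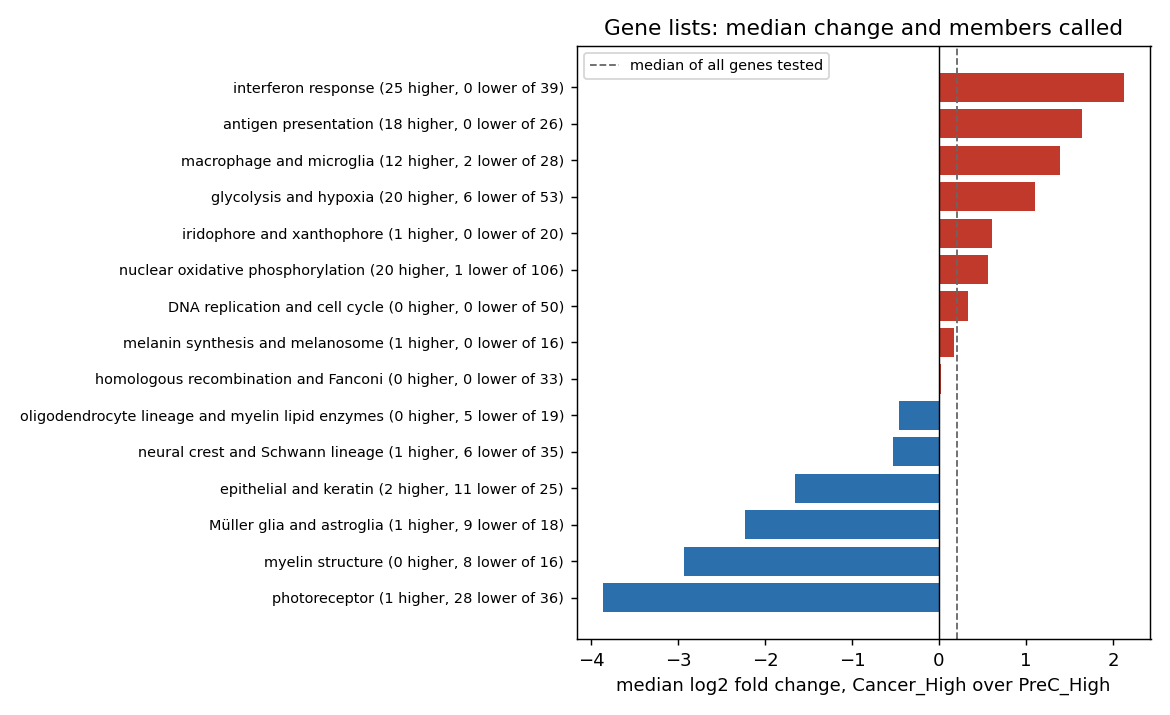
Bars give the median log2 fold change of Cancer_High over PreC_High for 15 gene lists, with the number of members called higher and lower of those tested in the row label and the median of all genes tested (0.211) as a dashed line. Interferon response (2.13) and antigen presentation (1.65) lie furthest right, and photoreceptor (-3.87) and myelin structure (-2.94) furthest left.

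Transcripts of rod photoreceptors, cells outside the sox10 lineages, were measurable in PreC_High and lower in Cancer_High. The rod transducin GNAT1 had 1.66, 0.860, 0.881 and 0.663 CPM in Cancer_High, against 125, 86.0 and 74.5 CPM in PreC_High (log2 fold change -6.55 ± 0.45, adjusted p = 4.08e-07). In the dim fractions GNAT1 averaged 33.5 ± 11.8 CPM in Cancer_Low and 3419.6 ± 1394 CPM in PreC_Low (SD, n = 4 and 3). Of 36 photoreceptor genes, 28 were lower and 1 higher (median -3.87), and their summed level was 49.2 to 73.9 CPM in Cancer_High and 1283 to 1588 CPM in PreC_High. The same 28 were lower in Cancer_Low, where 1208 of all 2364 called genes were called in the same direction in both fractions. Another 2 rod genes read 1.89, 0.874, 0.749 and 0.633 CPM in Cancer_High, against 61.6, 37.1 and 51.3 CPM in PreC_High (saga, the arrestin) and 0.848, 0.305, 0.338 and 0.407 CPM in Cancer_High, against 33.8, 24.6 and 35.3 CPM in PreC_High (rom1a, a disc membrane protein).

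Genes of Müller glia and of neurons gave mostly lower calls. Of 18 Müller glia and astroglia genes 9 were lower and 1 higher; the prostaglandin synthase gene ptgdsb.2 had 0.598, 0.805, 0.499 and 0.648 CPM in Cancer_High, against 25.2, 14.1 and 13.8 CPM in PreC_High (log2 fold change -4.79 ± 0.32, adjusted p = 3.92e-07), the lipid carrier apoeb had 45.7, 16.6, 40.5 and 23.9 CPM in Cancer_High, against 333, 261 and 428 CPM in PreC_High (log2 fold change -3.43 ± 0.32, adjusted p = 4.24e-06). SLC1A2 (ENSDARG00000102453), a glutamate transporter, had 0.723, 0.305, 0.602 and 0.482 CPM in Cancer_High, against 26.1, 17.9 and 13.7 CPM in PreC_High. The retinoid carrier rlbp1a had 0.570, 0.222, 0.0294 and 0.708 CPM in Cancer_High, against 4.80, 10.3 and 7.33 CPM in PreC_High (log2 fold change -4.28 ± 0.62, adjusted p = 2.35e-04). Inner retina and neuron genes gave 6 lower and 1 higher of 30, and synapse genes 6 lower of 29, with ELAVL3, an RNA-binding protein of neurons, at 0, 0.222, 0.0147 and 0.105 CPM in Cancer_High, against 17.03, 15.1 and 20.6 CPM in PreC_High and the synaptic vesicle gene sypb at 0.389, 0.0832, 0.103 and 0.181 CPM in Cancer_High, against 5.70, 6.34 and 2.97 CPM in PreC_High. The part of such transcripts in the bright-fraction differences was not tested.

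Keratin genes gave calls in both directions. krt5, of basal epidermis, had 57.5, 35.7, 33.7 and 37.9 CPM in Cancer_High, against 468, 687 and 492 CPM in PreC_High (log2 fold change -3.74 ± 0.35, adjusted p = 3.68e-06). The epithelial adhesion gene epcam had 4.71, 4.30, 2.63 and 2.05 CPM in Cancer_High, against 24.3, 33.6 and 15.9 CPM in PreC_High (log2 fold change -2.84 ± 0.50, adjusted p = 0.0013). The simple keratin krt18b had 3576, 3493, 4607 and 3956 CPM in Cancer_High, against 1606, 969 and 1078 CPM in PreC_High (log2 fold change 1.68 ± 0.42, adjusted p = 0.015), lost without PreC_High replicate 2 or 3 (adjusted p = 0.0661 and 0.0657). krt4 had 169, 379.9, 73.4 and 930.5 CPM in Cancer_High, against 79.5, 48.5 and 37.2 CPM in PreC_High (log2 fold change 2.82 ± 0.65, adjusted p = 0.00997), with Cancer_High replicate 3 inside the PreC_High range and the call lost without PreC_High replicate 3 (adjusted p = 0.0530). krt8, the usual partner of keratin 18, had 4491, 5389, 4597 and 4989 CPM in Cancer_High, against 4555, 4471 and 3389.7 CPM in PreC_High (adjusted p = 0.752). In the list of 25 epithelial genes 11 were lower and 2 higher, with a median of -1.66. The summed level of the list went the other way, at 9053 to 10750 CPM in Cancer_High and 5561 to 7353 CPM in PreC_High.

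Macrophage genes were higher at low levels. SPI1, the myeloid transcription factor, had 14.6, 12.9, 9.86 and 8.92 CPM in Cancer_High, against 3.18, 4.03 and 3.06 CPM in PreC_High (log2 fold change 1.76 ± 0.38, adjusted p = 0.00572), c1qa, of complement, had 20.7, 18.2, 19.1 and 12.2 CPM in Cancer_High, against 2.69, 3.26 and 4.23 CPM in PreC_High (log2 fold change 2.37 ± 0.50, adjusted p = 0.00559). The scavenger receptor marco had 67.0, 41.9, 49.6 and 45.8 CPM in Cancer_High, against 5.51, 10.9998 and 14.1 CPM in PreC_High (log2 fold change 2.32 ± 0.54, adjusted p = 0.0103), lost without PreC_High replicate 1 (adjusted p = 0.0569). The colony-stimulating factor receptor csf1ra had 11.25, 20.5, 17.2 and 15.5 CPM in Cancer_High, against 4.54, 3.77 and 6.48 CPM in PreC_High (log2 fold change 1.71 ± 0.43, adjusted p = 0.0155), lost without PreC_High replicate 1 or 2 (adjusted p = 0.0660 and 0.0697). Of 28 macrophage and microglia genes 12 were higher and 2 lower, with a median of 1.39. All 12 were also higher in Cancer_Low, where 1208 of all 2364 called genes were called in the same direction in both fractions. Without PreC_High replicate 1 the count of higher macrophage genes was 4, and without replicate 2 it was 7. The summed level was 1185 to 1668 CPM in Cancer_High and 595 to 789 CPM in PreC_High, against 4731 to 16622 CPM in Cancer_Low and 2497 to 4513 CPM in PreC_Low. The protease gene ctss2.2 had 51.6, 39.0, 69.7 and 34.1 CPM in Cancer_High, against 5.72, 11.04 and 13.4 CPM in PreC_High (log2 fold change 2.27 ± 0.47, adjusted p = 0.00464).

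Macrophage markers did not move as one. timd4, a receptor by which resident macrophages take up dying cells, had 2.46, 0.832, 0.690 and 2.08 CPM in Cancer_High, against 44.8, 61.6 and 58.1 CPM in PreC_High (log2 fold change -5.17 ± 0.70, adjusted p = 1.12e-04). MPEG1 (ENSDARG00000055290), a macrophage perforin, had 16.6, 17.6, 12.02 and 19.8 CPM in Cancer_High, against 4.48, 8.42 and 7.62 CPM in PreC_High and an adjusted p of 0.0428, lost in 12 of 16 alternative fits. ptprc, the pan-leukocyte CD45, had 31.8, 39.8, 22.3 and 30.1 CPM in Cancer_High, against 13.4, 25.8 and 21.7 CPM in PreC_High (adjusted p = 0.302). Neutrophil genes gave 3 higher of 19, among them srgn, a granule proteoglycan (47.6, 77.0, 39.7 and 69.8 CPM in Cancer_High, against 10.04, 9.54 and 14.01 CPM in PreC_High). NCF4, of the phagocyte oxidase (12.9, 9.20, 8.14 and 4.32 CPM in Cancer_High, against 0.806, 2.24 and 1.49 CPM in PreC_High). Pan-leukocyte genes gave 2 higher of 17, among them CORO1A (112 ± 45.5 CPM in Cancer_High and 31.5 ± 9.80 CPM in PreC_High; SD, n = 4 and 3, a call lost in 4 of the 7 fits without 1 library, with adjusted p up to 0.0932), T and NK cell genes 1 higher and 2 lower of 32, and B cell genes 1 higher and 2 lower of 14. Beside these counts, 4.91% of all genes tested were higher and 5.24% lower. The T cell kinase lck had 0.570, 1.32, 1.22 and 1.0999 CPM in Cancer_High, against 0.928, 0.457 and 14.7 CPM in PreC_High, high in PreC_High replicate 3 alone. The part of leukocyte transcripts in the interferon and antigen presentation results was not tested.

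Several of the largest single changes belong to none of the groups above. cd59a, which encodes a membrane regulator of complement, had 6.45, 11.06, 14.9 and 6.31 CPM in Cancer_High, against 1459, 1315 and 1175 CPM in PreC_High (log2 fold change -7.09 ± 0.61, adjusted p = 2.22e-06). dhrs12la, a short-chain dehydrogenase gene, had 0.626, 1.40, 1.41 and 3.07 CPM in Cancer_High, against 436, 399 and 438 CPM in PreC_High (log2 fold change -8.02 ± 0.78, adjusted p = 5.63e-06). LMO7, a LIM domain protein of cell junctions, had 6.87, 3.08, 2.98 and 5.62 CPM in Cancer_High, against 218, 216 and 224 CPM in PreC_High (log2 fold change -5.56 ± 0.43, adjusted p = 8.61e-07). At all 3 the pre-cancerous libraries were close together and each tumour lay far below them.

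A similar fall was seen at GPM6A (ENSDARG00000004621), a membrane glycoprotein of neurons, with 3.95, 7.30, 14.9 and 4.01 CPM in Cancer_High, against 314, 259 and 298 CPM in PreC_High (log2 fold change -5.27 ± 0.57, adjusted p = 1.27e-05), at the tetraspanin CD82 (ENSDARG00000019098), with 8.02, 7.73, 17.3 and 5.09 CPM in Cancer_High, against 218, 222 and 211 CPM in PreC_High (log2 fold change -4.51 ± 0.47, adjusted p = 8.91e-06), and at GREB1L, with 0.932, 1.08, 11.8 and 8.09 CPM in Cancer_High, against 258, 119 and 162 CPM in PreC_High (log2 fold change -5.04 ± 0.76, adjusted p = 3.37e-04). Among rises, COL8A1, a short-chain collagen, had 32.0, 124, 148 and 324 CPM in Cancer_High, against 3.08, 1.06 and 2.17 CPM in PreC_High (log2 fold change 6.22 ± 0.97, adjusted p = 4.42e-04). il4i1, a secreted amino acid oxidase, had 109, 144, 209.7 and 10.8 CPM in Cancer_High, against 1.88, 2.82 and 3.06 CPM in PreC_High (log2 fold change 5.52 ± 1.15, adjusted p = 0.00463). shisa10.2 had 165, 143, 232 and 17.1 CPM in Cancer_High, against 1.13, 2.33 and 3.88 CPM in PreC_High (log2 fold change 5.83 ± 0.87, adjusted p = 3.09e-04). cd9a, a tetraspanin, had 129.996, 48.2, 22.9 and 42.8 CPM in Cancer_High, against 2.36, 2.62 and 5.63 CPM in PreC_High (log2 fold change 4.11 ± 0.59, adjusted p = 2.21e-04). CRABP2 (ENSDARG00000030449), a carrier of retinoic acid, had 51.9, 10.02, 287 and 41.8 CPM in Cancer_High, against 4.53, 2.88 and 3.00 CPM in PreC_High (log2 fold change 4.81 ± 0.91, adjusted p = 0.00223). These genes, and those of the paragraph before, were named only if their groups did not overlap. Their separation is thus part of the choice. Cancer_High replicate 4 was the lowest tumour at il4i1 and shisa10.2.

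Genes of matrix and mesenchyme changed one by one. SPARC, a matrix glycoprotein, had 754, 550.4, 1571 and 1101 CPM in Cancer_High, against 259, 134 and 243 CPM in PreC_High (log2 fold change 2.23 ± 0.55, adjusted p = 0.0143), lost without PreC_High replicate 2 (adjusted p = 0.0664). loxl2a, a collagen cross-linker, had 129, 7.24, 25.2 and 107 CPM in Cancer_High, against 4.66, 2.89 and 1.95 CPM in PreC_High (log2 fold change 4.40 ± 0.83, adjusted p = 0.00221). CDH2, N-cadherin, had 85.6, 89.8, 52.1 and 112 CPM in Cancer_High, against 265, 339.9 and 265 CPM in PreC_High (log2 fold change -1.77 ± 0.32, adjusted p = 0.00177), TGFB3 had 3.87, 2.23, 3.53 and 2.53 CPM in Cancer_High, against 14.9, 32.9 and 17.5 CPM in PreC_High (log2 fold change -2.84 ± 0.40, adjusted p = 1.80e-04). PRRX1 (ENSDARG00000033971), a mesenchymal transcription factor, had 0.612, 1.11, 0.264 and 0.919 CPM in Cancer_High, against 7.39, 7.92 and 10.2 CPM in PreC_High (log2 fold change -3.55 ± 0.45, adjusted p = 6.83e-05). In the mesenchymal transition list 6 of 25 were lower and 1 higher. The gelatinase MMP2 had 19.1, 12.8, 14.8 and 17.6 CPM in Cancer_High, against 90.9, 134 and 66.0 CPM in PreC_High (log2 fold change -2.59 ± 0.53, adjusted p = 0.00406). The surface protease adam8a had 144, 225, 239.7 and 393 CPM in Cancer_High, against 109, 83.3 and 70.9 CPM in PreC_High (log2 fold change 1.51 ± 0.37, adjusted p = 0.0142), lost without PreC_High replicate 2 or 3 (adjusted p = 0.0534 and 0.0705). Matrix protease genes gave 2 higher and 2 lower of 29, and fibroblast and collagen genes 1 and 1 of 38. Both counts lie near or below the shares of all genes tested, 4.91% higher and 5.24% lower. The collagen gene col1a1a had 80.7, 23.1, 43.4 and 55.1 CPM in Cancer_High, against 39.2, 22.9 and 34.2 CPM in PreC_High (adjusted p = 0.52).

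Cell division and DNA repair genes gave no calls. Of 50 replication and cell cycle genes 0 passed the threshold in either direction (median 0.33; DESeq2 called 0 higher and 1 lower), of 33 homologous recombination and Fanconi genes 0 (median 0.02; DESeq2 0), and of 15 Polycomb complex genes 0 (median 0.10; DESeq2 0). mki67, a marker of dividing cells, had 291, 250.5, 164 and 199 CPM in Cancer_High, against 154, 123 and 217 CPM in PreC_High (log2 fold change 0.46 ± 0.58, adjusted p = 0.679). PCNA, the replication clamp, had 405, 598, 252 and 221 CPM in Cancer_High, against 288, 217 and 364 CPM in PreC_High (log2 fold change 0.35 ± 0.50, adjusted p = 0.721). The groups overlap at both genes. NF1 (ENSDARG00000004184), neurofibromin, the tumour suppressor lost in human nerve sheath tumours, had 109, 149.8, 91.9 and 165 CPM in Cancer_High, against 84.9, 76.4 and 90.04 CPM in PreC_High (log2 fold change 0.62 ± 0.41, adjusted p = 0.375). Of 38 Ras-MAPK genes 1 was higher, mych, a Myc family factor, with 589, 542, 697 and 568 CPM in Cancer_High, against 429.8, 218 and 201 CPM in PreC_High (log2 fold change 1.08 ± 0.32, adjusted p = 0.0425), a call lost in 11 of 16 alternative fits. That share lies below the 4.91% of all genes tested.

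Secreted signals shifted in a few places. Growth factor and receptor genes gave 8 lower and 2 higher of 53; IGF1, the insulin-like growth factor, had 0.278, 0.597, 0.353 and 0.256 CPM in Cancer_High, against 7.17, 11.9 and 12.8 CPM in PreC_High (log2 fold change -4.83 ± 0.78, adjusted p = 6.25e-04). In the inflammatory list 7 were higher and 2 lower of 44. il34, a ligand of the colony-stimulating factor receptor, had 44.5, 64.7, 25.2 and 65.7 CPM in Cancer_High, against 7.30, 16.6 and 17.1 CPM in PreC_High (log2 fold change 1.87 ± 0.41, adjusted p = 0.00628), the chemokine ccl34a.4 had 20.4, 58.0, 18.3 and 14.03 CPM in Cancer_High, against 1.13, 3.07 and 2.72 CPM in PreC_High (log2 fold change 3.58 ± 0.63, adjusted p = 0.00134). CXCL12, a chemokine of stromal cells, had 2.29, 2.65, 1.22 and 0.949 CPM in Cancer_High, against 14.4, 9.71 and 10.6 CPM in PreC_High (log2 fold change -2.70 ± 0.50, adjusted p = 0.00194). Unfolded protein response genes gave 2 higher of 29, a share near the 4.91% of all genes tested. In the dim fractions 19 of them were higher, where 7.95% of all genes were, and the interaction was called at 0 of the 29. The heat shock gene hsp70l had 155, 281, 371 and 122 CPM in Cancer_High, against 1754, 981 and 461 CPM in PreC_High (log2 fold change -2.20 ± 0.56, adjusted p = 0.018), a call lost without PreC_High replicate 1 or Cancer_High replicate 1 (adjusted p = 0.114 and 0.0531). The list of dissociation and immediate early genes gave 1 higher and 2 lower of 32, where 4.91% of all genes tested were higher and 5.24% lower.

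Many stage changes of the bright cells also appeared in the dim cells of the same tissues. Of the 2364 called genes, 1208 were called in the same direction between Cancer_Low and PreC_Low and 53 in the opposite direction, where 19.1% of all genes were called. The dim groups also differ in age, in library index (10, 11, 12 and 15 in Cancer_Low, 4, 6 and 8 in PreC_Low) and in even counts. Of counts between 20 and 100, 51.4 to 53.9% were even in Cancer_Low and 60.8 to 77.8% in PreC_Low. The part of these differences in the shared calls was not tested. The difference between the 2 stage changes, tested as an interaction, passed the threshold at 792 genes (3.40%, or 2.36% up and 1.04% down), 550 up (the bright-cell change higher than the dim-cell change) and 242 down. High and Low libraries of a tissue code are pairs, and with the tissue as a block the counts were 206 up and 209 down. Over fits without 1 library the counts were 265 to 791 up and 131 to 427 down, with both maxima in the fit without Cancer_Low replicate 4. That library had 2026 CPM summed over the melanin list, against 425, 125 and 329 CPM in Cancer_Low replicates 1, 2 and 3. Of the 25 called interferon genes, 24 were also higher in Cancer_Low, and of the 18 called antigen presentation genes, 11 were. These counts are to be read against the 1208 of 2364 called genes above, while 7.95% of all genes tested were called higher in Cancer_Low. None of the 25 or the 18 passed the interaction test, where 292 of the 2364 called genes and 3.40% of all genes did.

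The log2 fall was larger in bright than in dim cells, by the interaction test, at 3 of the 16 myelin structure genes. cldnk had an interaction log2 value of -5.94 ± 1.12, adjusted p = 0.00833. mag had -4.70 ± 1.103, adjusted p = 0.0271, a call kept in 19 of 24 alternative fits. Both genes also fell in the dim cells (adjusted p = 0.0101 for cldnk and 1.79e-04 for mag). cldnk averaged 303 CPM in PreC_High and 13.04 CPM in PreC_Low, against 0.618 CPM in Cancer_High and 1.63 CPM in Cancer_Low. mag averaged 189 and 10.2 CPM, against 0.154 and 0.219 CPM, in the same order. The part of the unequal pre-cancerous levels in these interaction values was not tested. At mbpa the dim-cell change was -4.40 ± 0.81, adjusted p = 0.0012, and the interaction was not called (adjusted p = 0.301). cd59a read 35.14, 28.9, 17.3 and 5.61 CPM in Cancer_Low, against 34.1, 59.3 and 20.5 CPM in PreC_Low, a log2 fold change of -0.81 ± 0.49, adjusted p = 0.28, and the interaction was -6.28 ± 0.77, adjusted p = 0.00117. The dim-cell change was likewise not called at CD82 (ENSDARG00000019098) (dim-cell change -0.19 ± 0.43, adjusted p = 0.806; interaction -4.32 ± 0.63, adjusted p = 0.00172) and erbb3b (dim-cell change -0.85 ± 0.56, adjusted p = 0.316; interaction -3.69 ± 0.82, adjusted p = 0.0204; with the tissue block adjusted p = 0.0585).

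Several other falls differed from the dim-cell change. PRRX1 (ENSDARG00000033971) (-3.94 ± 0.63, adjusted p = 0.00313), MMP2 (-3.56 ± 0.75, adjusted p = 0.0154) and timd4 (-4.94 ± 0.93, adjusted p = 0.00803) had negative interaction values, with falls in bright cells and uncalled dim-cell changes of 0.39, 0.97 and -0.23. SOX9 (ENSDARG00000043923) (-3.36 ± 0.72, adjusted p = 0.0172), LMO7 (-3.58 ± 0.55, adjusted p = 0.00218) and dhrs12la (-4.41 ± 0.91, adjusted p = 0.0135) also had negative values. TFEC, not called in the bright cells, was higher in Cancer_Low (dim-cell log2 fold change 3.56 ± 0.44, adjusted p = 3.61e-05; interaction -2.94 ± 0.56, adjusted p = 0.00833), and likewise MITF (ENSDARG00000003732) (dim-cell 2.28 ± 0.46, adjusted p = 0.00239; interaction -2.40 ± 0.62, adjusted p = 0.0408; tissue block adjusted p = 0.0554). The interaction call of this MITF copy was kept in 13 of 24 alternative fits.

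Positive interaction values had more than 1 form. The enolase copy ENO1 (ENSDARG00000013750) had 38.5, 64.0, 70.31 and 26.7 CPM in Cancer_High, against 17.3, 7.22 and 9.40 CPM in PreC_High, while the dim cells had 34.4, 36.5, 23.6 and 86.3 CPM in Cancer_Low, against 308, 261 and 157 CPM in PreC_Low (interaction 4.56 ± 0.67, adjusted p = 0.00172). sp100.3, named after a nuclear body protein, had 167, 45.2, 37.1 and 12.97 CPM in Cancer_High, against 3.64, 4.44 and 5.64 CPM in PreC_High (interaction 4.91 ± 0.90, adjusted p = 0.00713), cd9a an interaction of 3.31 ± 0.72, adjusted p = 0.0184 and CRABP2 (ENSDARG00000030449) one of 4.47 ± 1.09, adjusted p = 0.0328. The interaction call of CRABP2 (ENSDARG00000030449) was kept in 16 of 24 alternative fits. NCAM1 (ENSDARG00000056181), a neural adhesion molecule, had 14.6, 86.4, 67.2 and 15.8 CPM in Cancer_High, against 31.9, 31.8 and 37.0 CPM in PreC_High where the change was not called, and fell in the dim cells (-3.58 ± 0.51, adjusted p = 1.18e-04; interaction 4.03 ± 0.71, adjusted p = 0.0055; tissue block adjusted p = 0.0533). LAPTM4B, a lysosomal membrane protein, did the same (dim-cell -3.56 ± 0.33, adjusted p = 1.93e-06; interaction 3.77 ± 0.45, adjusted p = 0.00117).

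**Figure D5:**
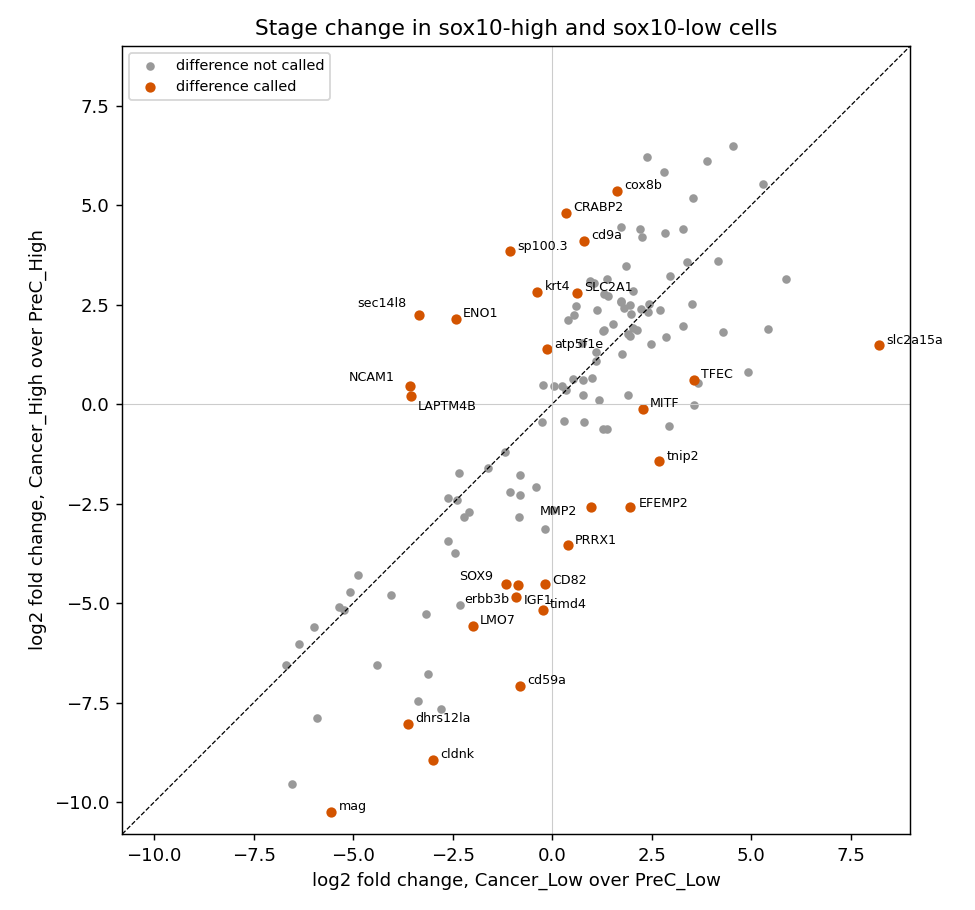
Each point is 1 of the 131 genes described, at its log2 fold change in dim cells (x axis, Cancer_Low over PreC_Low) and in bright cells (y axis, Cancer_High over PreC_High), with the genes whose difference was called in orange and the dashed line at equal changes. cd59a, CD82 (ENSDARG00000019098), erbb3b and timd4 lie below the line near 0 on the x axis, and NCAM1 (ENSDARG00000056181) and LAPTM4B lie above it near 0 on the y axis.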

How the data were processed

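The deposited table gives raw counts per Ensembl gene for 17 libraries; the authors listed FastQC, STAR, HTSeq and DESeq2 with the build danRer10, per the submitters' processing notes, and the sources used here do not give versions, annotation release or strandedness. Groups came from the sample labels. Genes first passed edgeR's filterByExpr with the groups given (minimum count 10, minimum total count 15), which left 23299 genes. Counts were fitted with edgeR 4.0.16 (R 4.3.3, TMM scaling, quasi-likelihood test, two-sided) in 1 model of all 17 libraries. P-values had a Benjamini-Hochberg adjustment over all genes, and genes were called under 0.05. CPM of genes and lists divides the counts by a library's total over the genes tested times its TMM factor, so libraries do not share 1 total. Sums over all genes tested were 1061748 to 1144561 CPM in Cancer_High and 859682 to 905357 CPM in PreC_High. The Pearson correlations used plain library totals. The standard error is the log2 fold change over the root of its F value. Alternatives used limma 3.58.1, DESeq2 1.42.0, other scalings and filters, fewer libraries, blocks and each library left out. The code was tested on simulated data. Genes and lists were chosen with earlier results of these data known. Of 131 genes described, 92 follow a rule, and 39 were list members chosen after their values were seen. The rule took the 10 largest rises and falls among expressed called genes, and only where the libraries of the groups did not overlap. Lack of overlap at those genes is therefore part of the choice. It also took the 6 largest interaction values each way among expressed genes called for the interaction. Up to 4 members of each list with called members, and fixed lineage genes, completed it. Symbols are as listed; paralogues may share reads. High and Low libraries carry the same tissue code and are pairs; their residuals correlated by 0.3358 to 0.462 in tumours and 0.0645 to 0.1398 in pre-cancerous tissue. Promoter sequences were not used here, and part of the genotype and some genes are not reported here.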

Additional observations from a re-analysis of the deposited data

Results flagged for a closer look

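Among the 4 tumour libraries of the bright fraction, 1 stood apart from the other 3 at 13 of the genes described, by a gap to its nearest neighbour above Dixon's 95% critical value for the group's range. That limit flags about 1 in 20 groups of independent, normally distributed values by chance; CPM values are skewed and genes are not independent, so the rate here was not measured. Cancer_High replicate 4 was low at ifi44c2 (14.96 CPM) and tnip2 (2.727 CPM) and high at MITF (ENSDARG00000037833; 8.574 CPM) and nkl.2 (5.168 CPM). Cancer_High replicate 3 was high at NFASC (9.388 CPM), CRABP2 (ENSDARG00000030449; 286.8 CPM) and sec14l8 (470.0 CPM). Cancer_High replicate 2 was high at SOX9 (ENSDARG00000003293; 2.858 CPM), VEGFA (ENSDARG00000103542; 55.83 CPM) and ccl34a.4 (58.01 CPM). Cancer_High replicate 1 was high at mhc1uba (48.72 CPM), twist1a (1.558 CPM) and NKX2-2 (0.01391 CPM, a single count where the others were at 0).

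The stage change differed between bright and dim cells, by the interaction test of edgeR, at 28 of the genes described. The log2 difference (bright minus dim) was negative for mag (-4.70), cldnk (-5.94), erbb3b (-3.69), SOX9 (ENSDARG00000043923; -3.36), MITF (ENSDARG00000003732; -2.40) and TFEC (-2.94). It was also negative for timd4 (-4.94), dhrs12la (-4.41), cd59a (-6.28), LMO7 (-3.58), CD82 (ENSDARG00000019098; -4.32), PRRX1 (ENSDARG00000033971; -3.94), MMP2 (-3.56), IGF1 (-3.93), slc2a15a (-6.74), EFEMP2 (ENSDARG00000094324; -4.55) and tnip2 (-4.13). It was positive for ENO1 (ENSDARG00000013750; 4.56), SLC2A1 (ENSDARG00000007412; 2.19), cox8b (3.74), atp5f1e (1.51), krt4 (3.19), CRABP2 (ENSDARG00000030449; 4.47), cd9a (3.31), sec14l8 (5.59), sp100.3 (4.91), NCAM1 (ENSDARG00000056181; 4.03) and LAPTM4B (3.77). With the tissue as a block the adjusted p was above 0.05 for erbb3b, MITF (ENSDARG00000003732), SLC2A1 (ENSDARG00000007412), atp5f1e, krt4 (0.121), IGF1 (0.147), sec14l8, NCAM1 (ENSDARG00000056181) and slc2a15a. Of 24 alternative fits, the interaction call was kept in 8 for krt4, 10 for IGF1, 13 for MITF (ENSDARG00000003732) and 14 for sec14l8. It was kept in 15 for SLC2A1 (ENSDARG00000007412) and 16 for CRABP2 (ENSDARG00000030449).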

How the results depend on the processing

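Of 99 called genes among those described, 78 kept the call in all 16 alternatives, 21 lost it in at least 1, and 0 changed sign. DESeq2 called 2056 genes higher and 1850 lower, and 1286 up and 845 down for the interaction. With limma voom the interaction gave 866 up and 443 down. With only the groups compared, 544 genes were higher, the interaction gave 258 up, and 6 oxidative phosphorylation genes were higher; fewer libraries estimate the spread there. With the tissue as a replicate block the interaction gave 206 up. Leaving out 1 library at a time gave 611 to 1180 genes higher and 1006 to 1121 lower, interaction counts of 265 to 791 up and 131 to 427 down, 6 to 23 oxidative phosphorylation genes and 4 to 11 macrophage genes higher. Replicate numbers shared between Cancer_High and PreC_High did not pair libraries (residual correlations of -0.0024, -0.0515 and 0.0472); with that replicate block 1292 genes were higher and 1308 lower. Some genes that were not called changed sign: twist1a (-0.0186 with CPM of at least 1, -0.0306 with a mean count of at least 100, -0.0130 with only the groups compared; -0.0146 to 0.3053 leaving out a library), ALX4 (ENSDARG00000088332; 0.0575 with halved counts; -0.1052 to 0.1486), MITF (ENSDARG00000003732; -0.3436 to 0.1249), lck (-2.8902 to 0.6037) and NCAM1 (ENSDARG00000056181; -0.0467 to 0.7501). The cause of these shifts was not tested.

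Because even counts were frequent in the PreC and Control libraries, their counts were halved and rounded down, an alternative chosen after seeing the data; 1406 genes were then higher and 1183 lower. RLE scaling gave 1001 higher and 1294 lower. Stage, age and library index remain inseparable, replicates may not be separate fish, and at 4 against 3 libraries small changes were often not detectable at this spread.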

Other observations

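Among lists not yet described, hox genes had a median log2 fold change of 1.97 with 0 of 13 called, endothelial genes gave 0 calls of 22, erythrocyte genes 0 of 10, and ribosomal protein genes 1 higher and 1 lower of 75. The 13 hox genes, tested of 47 IDs, had low summed levels that overlap, 7.9 to 66.6 CPM in Cancer_High and 4.36 to 37.1 CPM in PreC_High. With a mean count of at least 100, 2 hox genes were left, with a median of 1.16. Wnt pathway genes gave 2 higher and 1 lower of 54, Hippo pathway genes 1 higher of 22, and lens and cornea genes 2 lower of 18. The shares of all genes tested were 4.91% higher and 5.24% lower. In the dim fractions, inflammatory genes gave 21 higher of 44, where 7.95% of all genes tested were higher. GATA3, a transcription factor of several lineages, had 6.61, 15.1, 5.41 and 15.2 CPM in Cancer_High, against 44.8, 25.6 and 25.4 CPM in PreC_High (adjusted p = 0.0478 by edgeR), a call lost in 9 of 16 alternative fits.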
